A study of Mus musculus with 4 samples.

Results

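Ion channel genes were described in 4 RNA-seq libraries of mouse CD4+ T cells. The members were the 70 genes, of 11027 listed, whose symbols carry a channel family name: potassium channel subunits (Kcn), voltage-gated calcium and sodium channel subunits (Cacn, Scn), TRP channels and mucolipins (Trp, Mcoln), P2X receptors, Orai, Stim1 and Stim2, the IP3 receptors, Piezo, chloride channel families (Clcn, Clic, Ano) and the volume-regulated Lrrc8 family. The rule reads symbols and no values, though the gene families were picked with earlier results of these data known. The deposited list is already reduced: every gene in it had at least 24 counts in sum, and channel genes outside it were not analysed here. The cells came from spleen and lymph nodes of wild type C57BL/6 mice aged 7 to 8 weeks. Naive CD4+ T cells were activated in conditions labelled neutral and given a retrovirus, either Tox2-RV-GFP or an empty GFP virus, and GFP+ cells were sorted before culture. IFN-gamma, IL-4 and IL-2 were blocked by antibodies in both cultures. IL-6 was added in Tfh-like and left out of Th0. There was 1 library for each of the 4 groups: Th0 with GFP, Tfh-like with GFP, Th0 with Tox2 and Tfh-like with Tox2. How many mice were pooled for each is not given in the sources used here, and Tox2 came from a virus, so its level was forced. The study asked how Tox2, an HMG-box DNA-binding protein, acts in the differentiation of T follicular helper (Tfh) cells.

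Ion channels set the calcium signal of a T cell. After the antigen receptor is engaged, IP3 receptors empty the endoplasmic reticulum, STIM proteins sense the loss, and the ORAI pore in the plasma membrane opens, which activates calcineurin and NFAT. Potassium channels keep the membrane negative so that calcium keeps flowing in, chloride and LRRC8 channels serve cell volume, and P2X receptors respond to extracellular ATP. In mice, STIM proteins are needed for Tfh differentiation, and P2X7 is known to limit Tfh cells in Peyer's patches.

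Total counts were between 13015283 and 13673774 per library, and the members held 0.381% to 0.476% of them. Tox2 had 144 and 851 counts in the GFP libraries and 35297 and 32246 in the Tox2 libraries, which follows the labels. All 7 markers of CD4+ T cells were measured, with summed levels of 3776 to 4646 CPM (counts scaled to library size). Of 6 B-cell markers 2 were measured. Their sum was 3.0 (GFP) and 10.4 CPM (Tox2) in Th0 and 28.8 (GFP) and 29.3 CPM (Tox2) in Tfh-like. Ebf1 made up nearly all of the latter, with Th0 and Tfh-like counts of 20 and 380 (GFP) and of 118 and 385 (Tox2). Cd79a was lower in Tfh-like, at 19 and 10 (GFP) and at 24 and 13 (Tox2). Of 3 epithelial markers 2 were measured, summing to 10.1 and 11 CPM with GFP and 21.4 and 15.3 CPM with Tox2. Epcam had GFP and Tox2 counts of 110 and 274 (Th0) and of 89 and 174 (Tfh-like). Krt18 did not rise with Tox2, at 22 and 19 (Th0) and at 60 and 33 (Tfh-like). Each sum thus moved with a group through a single gene, Ebf1 or Epcam, and the part of either in the results was not tested. Myeloid markers (3 of 6 measured) summed to 7.99 to 14.2 CPM, Cd8b1 to 9.29 to 15.2 CPM, and the megakaryocyte, erythroid and neural lists, with 1 measured marker each, to 2.63 CPM at most. The dendritic, NK and mast cell lists had no measured member. In bulk RNA, fewer cells that express a gene and less of its RNA in each cell cannot be told apart.

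The level per length, given by the authors' FPKM (fragments scaled to gene length and library depth), spread widely over the members. The mean FPKM over the 4 libraries had a median of 2.51 over the 70 members, against 7.14 over all 11027 genes, and ran from 0.164 for Trpv4 to 259 for Clic1. It was under 1 for 22 members and at least 10 for 13. Clic1, a chloride intracellular channel protein, stood highest in each library, at 214 to 306 FPKM. Next in the mean came Kcnn4, the calcium-activated potassium channel of activated T cells, at 72.2 to 91.8 FPKM. Kcnab2, a cytoplasmic subunit of voltage-gated potassium channels, had 42.8 to 98.1 FPKM, Orai1 37.5 to 70.1, and Trpv2, a calcium-permeable TRP channel, 28.8 to 35.1. Kcnn4 was above Orai1 in each library, whereas Kcnab2 was above Kcnn4 in Tfh-like with GFP and below Orai1 in Th0, so the order of the means is not the order in each library. Kcna3, the voltage-gated potassium channel that holds the resting potential of T cells, had 9.74 to 11.9 FPKM. Kcnn4 was thus 6.08 to 8.97 times as high as Kcna3 per length in each library. The group of calcium entry and release genes had a median FPKM of 12.5, while the 13 voltage-gated potassium subunits had a median of 0.665 and the 6 voltage-gated calcium subunits one of 0.640.

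**Figure D1:**
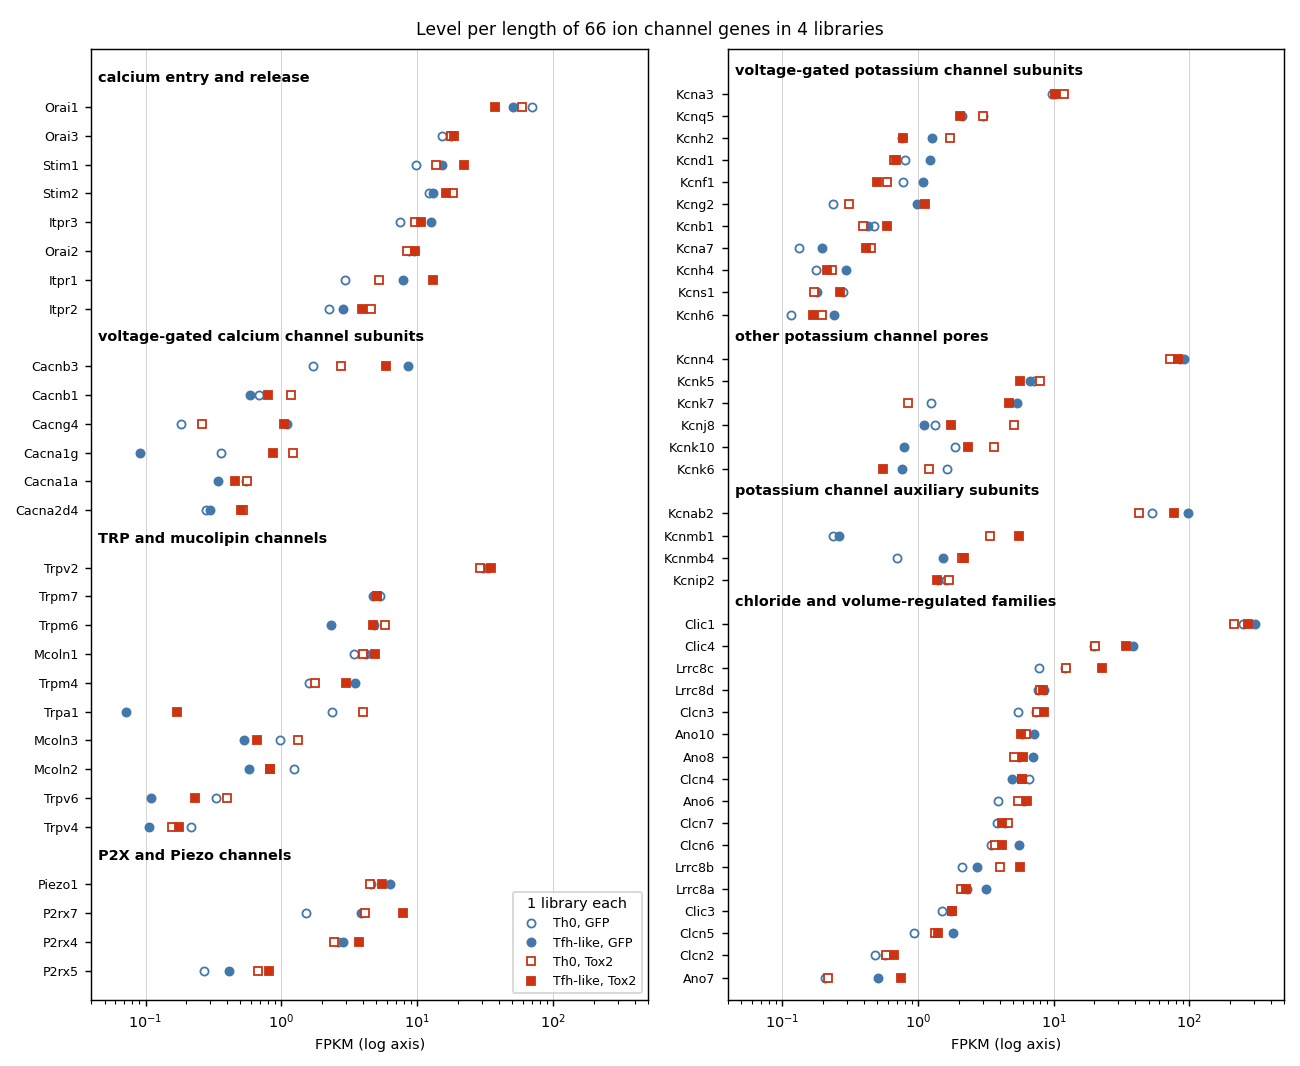
FPKM (log axis) of 66 of the 70 members in the 4 libraries, grouped by family and sorted by the mean, 1 symbol a library. Clic1, Kcnn4, Kcnab2 and Orai1 have the highest means, while Kcnmb1 lies at 0.239 and 0.264 with GFP and at 3.39 and 5.53 with Tox2, and Trpa1 falls with the Tfh-like culture.

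The next question was which channel genes differed with forced Tox2 over both cultures. With 1 library per group, a model with 1 term for the virus and 1 for the culture was fitted to the 4 libraries together, and a gene was said to rise or fall where its edgeR quasi-likelihood p, adjusted over the 10960 genes compared, was under 0.05. The only spread in that model is how far the Tox2 effect differed between the cultures, pooled over genes, so its p-values do not measure replicate error. The SE given with a log2 fold was the size of the fold divided by the square root of the test's F statistic. It does not measure replicate error either. Of the 69 members compared, 9 rose with Tox2 and 0 fell, where 4.07% of all genes compared rose and 2.74% fell. DESeq2 called 9 members up and 0 down, where 301 of the 10960 genes were up and 191 down. With limma-voom 10 members were up and 0 down, where 518 of all genes were up and 384 down. An unadjusted edgeR p under 0.05 was found for 22 members, against 27.4% of all genes. The 9 were Kcnmb1, Cacna1g, Kcnk10, P2rx7, Lrrc8b, Lrrc8c, Itpr1, Itpr2 and Stim1, and no TRP, mucolipin or voltage-gated potassium gene was among them. The epithelial marker sum given above was also higher with Tox2, through Epcam and not Krt18. Kcns1, a modifier subunit at 8 to 13 counts, did not reach 1 CPM and was not compared.

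A second description used single pairs of libraries: a gene was called 2-fold apart where its log2 fold of scaled CPM was at least 1 in size and its 95% counting interval excluded no difference. By this measure 9 members were higher and 1 lower with Tox2 in Th0, against 3.18% and 1.56% of all genes. In Tfh-like, 5 were higher and 1 lower, against 2.86% and 1.90%. Kcnmb1 and Cacna1g were 2-fold higher in both cultures, where 1.23% of all genes were. Over the members the log2 folds had medians of 0.18 (Th0) and 0.07 (Tfh-like), with the median of all genes at -0.00 in each. Both Tox2 libraries lay above both GFP libraries in 17 members and below them in 5, against 19.5% and 17.2% of all genes.

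**Figure D2:**
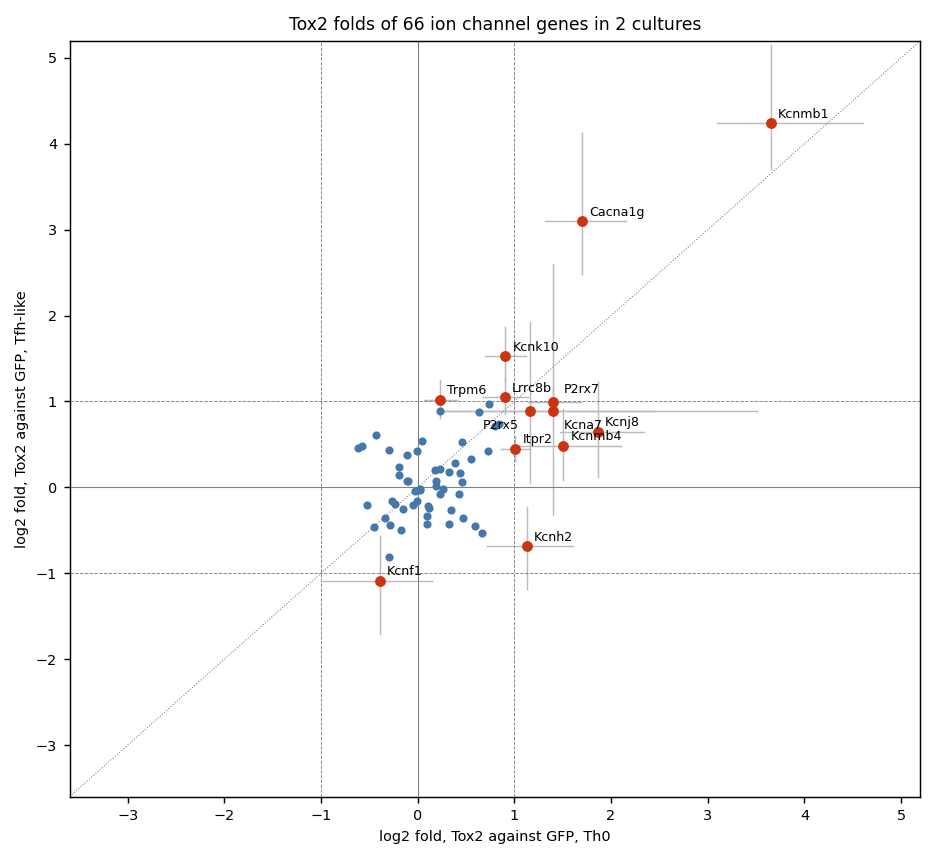
Log2 fold of Tox2 over GFP for 66 of the 70 members in Th0 (horizontal) and in Tfh-like (vertical). Red points are members called 2-fold apart (dashed lines) in at least 1 culture, with 95% counting intervals as grey lines, and the dotted line marks equal folds. Kcnmb1 (3.65 and 4.24) and Cacna1g (1.69 and 3.10) lie above 1 on both axes, and Kcnh2 (1.13 and -0.69) lies on opposite sides of 0.

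Promoters of 4 members that rose with Tox2 are printed here, as the 250 bases before the annotated start. Lrrc8b and Lrrc8c were chosen as neighbours that rose together, and Kcnmb1 for the largest Tox2 fold of the 70 members. Neither reason applies to P2rx7, and the 4 do not stand for all members that rose. The sequences are from RefSeq (build GRCm38.p6), whose table held 53 of the 70 members, and run 5' to 3' on the gene's strand. Capitals mark matches on either strand to 1 of 3 short motifs: CTTTGA (the core bound by TCF and LEF factors), TTCNNNGAA (STAT factors) and TGANTCA (AP-1).
Kcnmb1, chr11:33962763-33963012, plus strand: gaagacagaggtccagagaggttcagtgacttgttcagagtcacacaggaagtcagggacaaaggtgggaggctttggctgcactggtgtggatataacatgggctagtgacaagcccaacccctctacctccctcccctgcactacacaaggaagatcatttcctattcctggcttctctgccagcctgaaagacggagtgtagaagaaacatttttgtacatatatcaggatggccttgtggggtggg
Lrrc8b, chr5:105415525-105415774, plus strand: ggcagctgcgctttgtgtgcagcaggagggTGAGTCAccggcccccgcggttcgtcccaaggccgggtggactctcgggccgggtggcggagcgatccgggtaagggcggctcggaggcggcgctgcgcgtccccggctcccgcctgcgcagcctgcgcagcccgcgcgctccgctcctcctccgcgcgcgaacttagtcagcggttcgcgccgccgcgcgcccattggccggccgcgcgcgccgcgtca
Lrrc8c, chr5:105519221-105519470, plus strand: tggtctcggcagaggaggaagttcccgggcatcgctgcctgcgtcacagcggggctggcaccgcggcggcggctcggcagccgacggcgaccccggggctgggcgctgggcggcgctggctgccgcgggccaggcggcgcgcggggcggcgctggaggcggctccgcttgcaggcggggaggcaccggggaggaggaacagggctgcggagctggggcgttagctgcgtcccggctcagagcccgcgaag
P2rx7, chr5:122643677-122643926, plus strand: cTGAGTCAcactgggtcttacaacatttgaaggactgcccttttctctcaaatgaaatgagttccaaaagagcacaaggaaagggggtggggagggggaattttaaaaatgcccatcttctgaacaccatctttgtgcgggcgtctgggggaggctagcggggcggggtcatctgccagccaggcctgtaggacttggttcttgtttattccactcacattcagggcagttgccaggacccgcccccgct
The TGANTCA motif was found in the windows of Lrrc8b and P2rx7 (the first of its 2 RefSeq starts), and in 6.75% of all 32851 promoter windows of this length. Over the 67 windows of the 53 members it was found in 3, or 4.48%, which is not above that share. The windows of Stim1, Itpr2 and Kcnk10, which also rose with Tox2 and are not printed, held no match to any of the 3 motifs. CTTTGA and TTCNNNGAA, found in 13.8% and 7.02% of all windows, had no match in these 4. The window before the second P2rx7 start, not printed, holds a CTTTGA match 99 bases before that start. A match is a run of letters and no evidence of binding.

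Kcnmb1 (chromosome 11, 33963013 to 33973641, plus strand) encodes a beta subunit of the large-conductance calcium-activated potassium channel, best known in smooth muscle, where it raises the channel's calcium sensitivity. The pore partner, Kcnma1, was not analysed here. Kcnmb1 had 17 (Th0) and 18 (Tfh-like) counts in GFP cells and 245 (Th0) and 385 (Tfh-like) in Tox2 cells. Both Tox2 libraries were far above both GFP libraries, which did not differ from each other beyond counting error. The ratio was 12.6 in Th0 and 18.9 in Tfh-like, and the log2 fold over both cultures was 4.10 (SE 0.24, edgeR adjusted p = 0.00166). The gene lies within the span of Kcnip1 and shares no exon base with another annotated gene. Its relative Kcnmb4, another beta subunit, had GFP and Tox2 counts of 40 and 121 (Th0) and of 83 and 120 (Tfh-like). Its log2 folds were 1.5 (counting interval 1.02 to 2.10) in Th0 and 0.49 (0.08 to 0.92), and it did not pass (edgeR adjusted p = 0.101). The antisense gene Kcnmb4os2 shares 20.8% of its exon bases, and without a stated strand setting the reads of the pair cannot be told apart.

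Cacna1g (chromosome 11, 94408391 to 94474198, minus strand), the pore of a low-threshold (T-type) calcium channel, had 62 (Th0) and 15 (Tfh-like) counts in GFP cells and 212 (Th0) and 147 (Tfh-like) in Tox2 cells. Each Tox2 library was above both GFP libraries, and the lowest of the 4 was Tfh-like with GFP. The ratio was 3.24 in Th0 and 8.58 in Tfh-like, and the log2 fold over both was 2.32 (SE 0.36, edgeR adjusted p = 0.0205). Per length the gene stayed low, at 0.0909 to 1.21 FPKM. The other measured calcium channel subunits did not pass for Tox2. Cacna2d4, an auxiliary subunit, had log2 folds of 0.84 and 0.74 (edgeR adjusted p = 0.0999), Cacnb1, a cytoplasmic beta subunit, 0.73 and 0.43, and Cacna1a, the pore of the P/Q-type channel, -0.01 and 0.42.

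Kcnk10, a mechanically and lipid-gated tandem-pore potassium channel, had 282 (Th0) and 114 (Tfh-like) counts in GFP cells and 547 (Th0) and 341 (Tfh-like) in Tox2 cells. The Tox2 libraries were again both above the GFP libraries, with 25.5 scaled CPM in Tfh-like with Tox2 against 21.0 in Th0 with GFP. It rose with Tox2 by 1.20 on the log2 scale (SE 0.18, edgeR adjusted p = 0.0189). Kcnj8, a pore of ATP-sensitive potassium channels, had GFP and Tox2 counts of 58 and 223 (Th0) and of 46 and 75 (Tfh-like), log2 folds of 1.86 and 0.65, and did not pass (edgeR adjusted p = 0.0625). Kcnk5 and Kcnk6, other tandem-pore channels, had log2 folds of 0.11 and -0.24 and of -0.46 and -0.47, and did not pass. The T-cell channels Kcnn4 and Kcna3 did not pass either, with log2 folds over both cultures of -0.22 (SE 0.10) and 0.12 (SE 0.14).

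P2rx7, the ATP-gated channel (chromosome 5, 122643911 to 122691432, plus strand), had 154 (Th0) and 378 (Tfh-like) counts in GFP cells and 423 (Th0) and 774 (Tfh-like) in Tox2 cells. The scaled level of 30.4 CPM in Th0 with Tox2 was close to the 29.0 CPM of Tfh-like with GFP, and the library with both Tox2 and IL-6 was the highest at 57.8 CPM. The ratio for Tox2 was 2.64 in Th0 and 1.99 in Tfh-like, and the log2 fold over both was 1.18 (SE 0.14, edgeR adjusted p = 0.00994). P2rx4, whose gene starts 16.1 kb after the end of P2rx7 on the same strand, had log2 folds of -0.11 and 0.37 and did not pass. The P2rx7 level per length was 0.581 times that of P2rx4 in Th0 with GFP and 2.10 times in Tfh-like with Tox2. P2rx5, at 11 to 32 counts, had log2 folds of 1.16 and 0.89 and did not pass. Piezo1, a mechanically gated channel, had -0.05 and -0.21, and 24.6% of its exon bases overlap Ctu2 on the opposite strand.

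Volume-regulated anion channels are built of LRRC8A, which every channel needs, with at least 1 of its relatives. Lrrc8b, Lrrc8c and Lrrc8d lie side by side on chromosome 5 (105415775 to 105490074, 105519388 to 105613018 and 105699969 to 105832436, all on the plus strand). Lrrc8c had 1013 (Th0) and 1517 (Tfh-like) counts in GFP cells and 1625 (Th0) and 2867 (Tfh-like) in Tox2 cells. Tfh-like with Tox2 was the highest, Th0 with GFP the lowest, and the other libraries were alike at 116 and 117 scaled CPM. Lrrc8b had GFP and Tox2 counts of 242 and 469 (Th0) and of 299 and 637 (Tfh-like), so its Tox2 libraries lay above its GFP libraries. Lrrc8b rose with Tox2 by 0.98 (SE 0.12, edgeR adjusted p = 0.0102) and Lrrc8c by 0.76 (SE 0.11, edgeR adjusted p = 0.0176). Lrrc8d, with 1647 to 1754 counts, had a log2 fold of 0.00 (SE 0.10), and Lrrc8a one of -0.34 (SE 0.18, edgeR adjusted p = 0.280). Lrrc8a shares 66.2% of its exon bases with Gm28035, so its counts are uncertain. Per length, Lrrc8c was 1.01 times Lrrc8d in Th0 with GFP and 2.69 times in Tfh-like with Tox2, and the difference between the genes was not tested.

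In the store-operated calcium pathway 3 of 8 members rose with Tox2, against 4.07% of all genes. Itpr1, an IP3 receptor, had 914 (Th0) and 2337 (Tfh-like) counts in GFP cells and 1641 (Th0) and 3942 (Tfh-like) in Tox2 cells. Here the virus groups overlapped, because the culture difference was larger, while within each culture the Tox2 library was higher. Its Tox2 log2 folds were 0.80 (Th0) and 0.72 (Tfh-like) and 0.76 over both (SE 0.10, edgeR adjusted p = 0.0129). Itpr2 had GFP and Tox2 counts of 563 and 1173 (Th0) and of 682 and 957 (Tfh-like), and rose by 0.73 (SE 0.15, edgeR adjusted p = 0.0399). Stim1, the calcium sensor of the endoplasmic reticulum, had 1732 (Th0) and 2582 (Tfh-like) counts in GFP cells and 2466 (Th0) and 3820 (Tfh-like) in Tox2 cells. It was highest with both Tox2 and IL-6, and rose with Tox2 by 0.50 (SE 0.10, edgeR adjusted p = 0.0378). Tox2 folds were larger for longer genes across the 10960 genes (Spearman rho 0.30 in Th0 and 0.13 in Tfh-like, across genes, which are not replicates). With that trend taken out (a setting added after the data were seen), 7 members rose, against 3.39% of all genes, and Itpr2 and Stim1 no longer passed (edgeR adjusted p = 0.0598 and 0.0714).

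Orai1, the pore of store-operated entry, had 2737 (Th0) and 1884 (Tfh-like) counts in GFP cells and 2325 (Th0) and 1428 (Tfh-like) in Tox2 cells. Its order over the libraries was the reverse of that of Stim1 at both ends: Th0 with GFP was highest and Tfh-like with Tox2 lowest. Its Tox2 log2 folds of -0.28 (Th0) and -0.44 (Tfh-like) did not pass (edgeR adjusted p = 0.0871). The ratio of Stim1 to Orai1 in FPKM was 0.140 (Th0) and 0.303 (Tfh-like) in GFP cells and 0.235 (Th0) and 0.592 (Tfh-like) in Tox2 cells. Stim2, the sensor of small losses of stored calcium, had log2 folds of 0.55 and 0.32 (edgeR adjusted p = 0.0655). Orai2 had -0.19 and 0.14, Orai3 0.18 and 0.07 and Itpr3 0.35 and -0.26, and none of them passed.

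**Figure D3:**
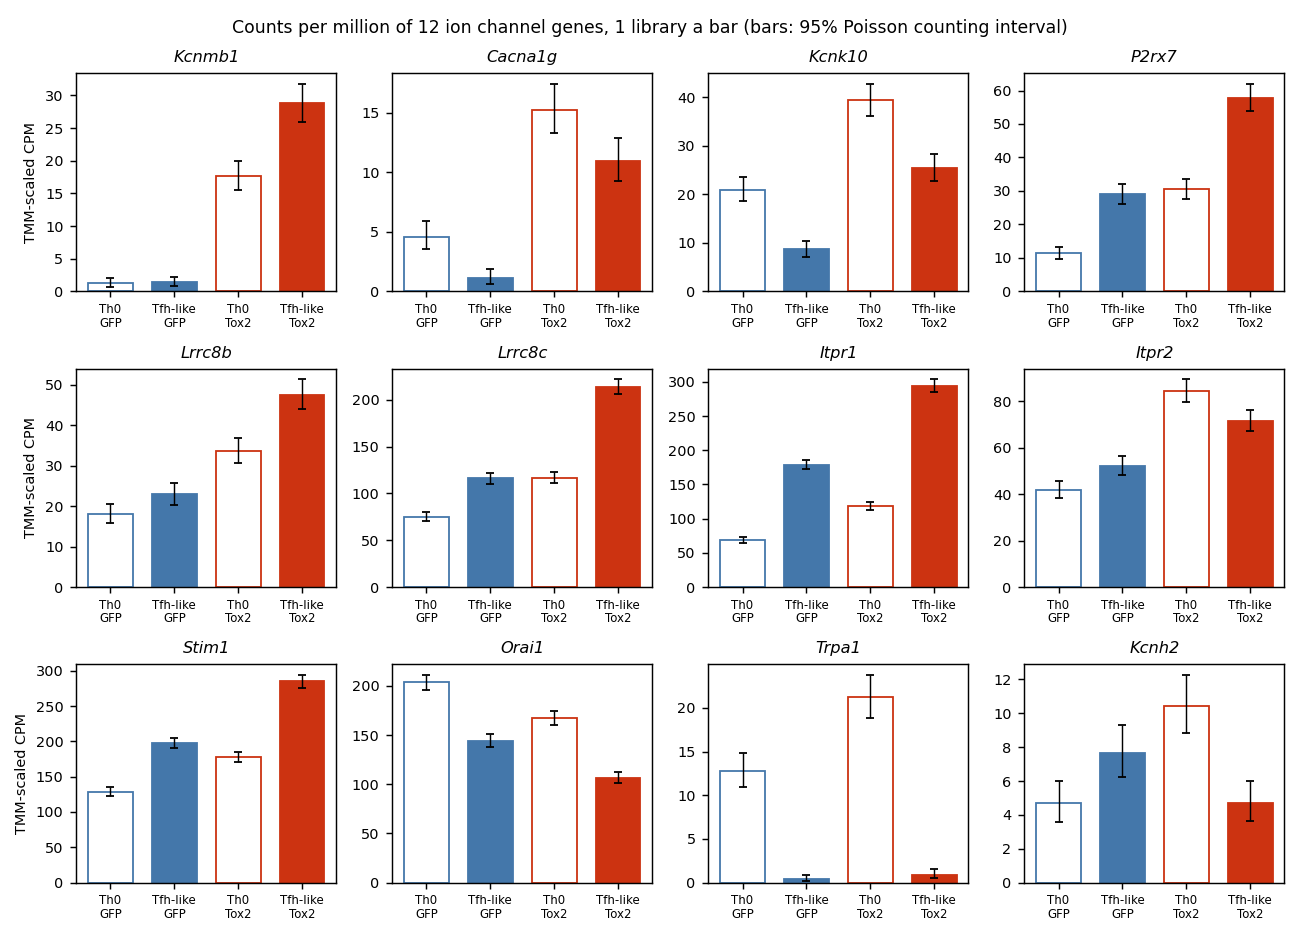
TMM-scaled CPM of 12 members, 1 bar a library, with 95% Poisson counting intervals as error bars and each vertical axis starting at 0. The 9 members that rose with Tox2 come first, with Kcnmb1 at 1.26 and 1.38 CPM with GFP and 17.6 and 28.8 CPM with Tox2, and Orai1, Trpa1 and Kcnh2 follow.

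For some members the Tox2 fold was unlike in the cultures. By the counting interval, the Tox2 folds of 6 members were at least 2-fold apart between the cultures: Cacna1g and Mcoln2 on the side of Tfh-like, where 1.78% of all genes were, and Cacnb3, Kcnh2, Kcnj8 and Kcnmb4 on the side of Th0, where 1.96% were. For 6 members, against 4.51% of all genes, the Tox2 folds had opposite signs in the cultures and each counting interval excluded no difference. No degree of freedom is left to test such a difference. Kcnh2, a delayed-rectifier potassium channel known from the heart, had GFP and Tox2 counts of 63 and 145 (Th0) and of 100 and 63 (Tfh-like). The library with Tox2 was thus the higher of the pair in Th0 (log2 fold 1.13, counting interval 0.72 to 1.61) and the lower in Tfh-like (-0.69, -1.18 to -0.23). Cacnb3, a cytoplasmic beta subunit of calcium channels, had GFP and Tox2 counts of 116 and 191 (Th0) and of 557 and 394 (Tfh-like), log2 folds of 0.66 and -0.53. Mcoln2, a lysosomal channel, had GFP and Tox2 counts of 69 and 47 (Th0) and of 31 and 45 (Tfh-like).

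Trpm6, Kcna7 and Kcnf1 were also 2-fold apart with Tox2 in a single culture. Trpm6, a magnesium-permeable channel fused to a kinase, was higher in Tfh-like by 1.02 and in Th0 by 0.23, and its close relative Trpm7 had log2 folds of -0.10 and 0.07. Kcna7, a voltage-gated potassium channel with 5 to 17 counts, was higher in Th0 by 1.40. Kcnf1, an electrically silent potassium channel subunit, had GFP and Tox2 counts of 63 and 49 (Th0) and of 85 and 40 (Tfh-like), with log2 folds of -0.40 and -1.09. With a prior count of 10 none of the 3 kept a 2-fold difference (0.999, 0.82 and -0.96 for Trpm6, Kcna7 and Kcnf1), and none passed the additive test.

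IL-6 was what set the cultures apart, and the next comparison asked which channel genes moved with it. Of the 69 members compared, 16 rose and 6 fell in Tfh-like, where 14.3% and 9.96% of all genes did. With scaling by total counts the split was 14 up and 9 down, where the shares of all genes at that scaling were 13.7% and 15%. In single pairs, 11 members were 2-fold higher and 7 lower in Tfh-like with GFP, against 7.78% and 3.11% of all genes. With Tox2, 8 were higher and 4 lower, against 6.56% and 2.86%. With both viruses 7 were higher and 2 lower, against 5.01% and 1.55%. Both Tfh-like libraries lay above both Th0 libraries in 25 members and below them in 13, against 27.6% and 25.1% of all genes. The members' median log2 fold was 0.28 with GFP and 0.13 with Tox2, with that of all genes at -0.01 and 0.00. The B-cell marker sum given above was also higher in Tfh-like, through Ebf1 and not Cd79a.

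Trpa1 (chromosome 1, 14872648 to 14918862, minus strand), the irritant-gated cation channel of sensory neurons, had the largest culture fold of the members. It had 171 (Th0) and 5 (Tfh-like) counts in GFP cells and 295 (Th0) and 12 (Tfh-like) in Tox2 cells. Both Th0 libraries were far above both Tfh-like libraries. The ratio of Th0 to Tfh-like was 24.2 with GFP and 20.5 with Tox2, and the log2 fold over both viruses was -4.73 (SE 0.28, edgeR adjusted p = 0.000202). Trpm4, a calcium-activated channel for monovalent cations, rose instead by 0.93 (SE 0.13), with Th0 and Tfh-like counts of 295 and 613 (GFP) and of 329 and 541 (Tox2). Among the 10 TRP and mucolipin genes Mcoln3 also fell, by 0.96 on the log2 scale (SE 0.27, edgeR adjusted p = 0.0462). Trpm6, Trpv6 and Mcoln2 were 2-fold lower in Tfh-like with GFP, at log2 folds of -1.06, -1.38 and -1.07. With Tox2 they stood at -0.27, -0.72 and -0.01, and they did not pass. Trpm6 fell with DESeq2 size factors and with total counts (edgeR adjusted p = 0.0399 and 0.0158, against 0.0515). Trpv6 and Mcoln2 were less than 2-fold apart with a prior count of 10 (-0.90 and -0.91). Trpv2, Trpv4, Trpm7 and Mcoln1 did not pass either.

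Of the calcium genes, Itpr1 rose with the culture by 1.36 (SE 0.10, edgeR adjusted p = 0.000449) and Stim1 by 0.65 (SE 0.10), while Orai1 fell by 0.57 on the log2 scale (SE 0.10, edgeR adjusted p = 0.00998). Each had the same direction with GFP and with Tox2. Cacnb3 rose by 1.68 (SE 0.27, edgeR adjusted p = 0.00707), with log2 folds of 2.29 with GFP and 1.09 with Tox2. Cacng4, a relative of the calcium channel gamma subunit that also serves glutamate receptors, had Th0 and Tfh-like counts of 11 and 64 (GFP) and of 16 and 62 (Tox2). It rose by 2.27 (SE 0.34).

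Among potassium channel genes, Kcnk7, a tandem-pore family member, had Th0 and Tfh-like counts of 26 and 107 (GFP) and of 18 and 95 (Tox2), and rose by 2.25 (SE 0.28). The silent subunit Kcng2 rose by 1.94 (SE 0.33) at 12 to 56 counts. Kcnab2 rose by 0.86 (SE 0.10, edgeR adjusted p = 0.00183), from 5018 to 8915 counts with GFP and from 4114 to 7127 with Tox2. In the other direction, Kcnk10 fell by 0.91 on the log2 scale (SE 0.18), Kcnk6 by 1.11 (SE 0.24) and Kcnq5, a slow voltage-gated channel, by 0.55 (SE 0.13). Kcnmb4 was 2-fold higher in Tfh-like with GFP (log2 fold 1.06), stood at 0.04 with Tox2, and did not pass; the former was 0.93 with a prior count of 10 and 0.96 with total counts. With Tox2, Kcnh2 and Kcnj8 were 2-fold lower in Tfh-like (-1.12 and -1.49), and had 0.69 and -0.28 with GFP.

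P2rx7 rose with the culture by 1.11 (SE 0.14, edgeR adjusted p = 0.00289), and Piezo1 by 0.36 (SE 0.10, edgeR adjusted p = 0.0488). Of the chloride and volume-regulated families, Clic4 rose by 0.84 (SE 0.10), from 2229 to 4084 counts with GFP and from 2289 to 3742 with Tox2. Lrrc8c rose by 0.75 (SE 0.11), Lrrc8b by 0.43 (SE 0.12, edgeR adjusted p = 0.0456) and Ano7, an anoctamin at 14 to 50 counts, by 1.54 (SE 0.35). The lysosomal and endosomal chloride-proton exchangers Clcn3 to Clcn7 and the scramblase Ano6 did not pass, nor did Clic1 (0.31, SE 0.10, edgeR adjusted p = 0.0597). With DESeq2, 15 members passed, and Ano7, Kcng2, Kcnk6, Kcnq5, Lrrc8b, Mcoln3 and Piezo1 were lost. Over all 10960 genes the number that passed was also lower with DESeq2, at 1609 against 2656.

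**Figure D4:**
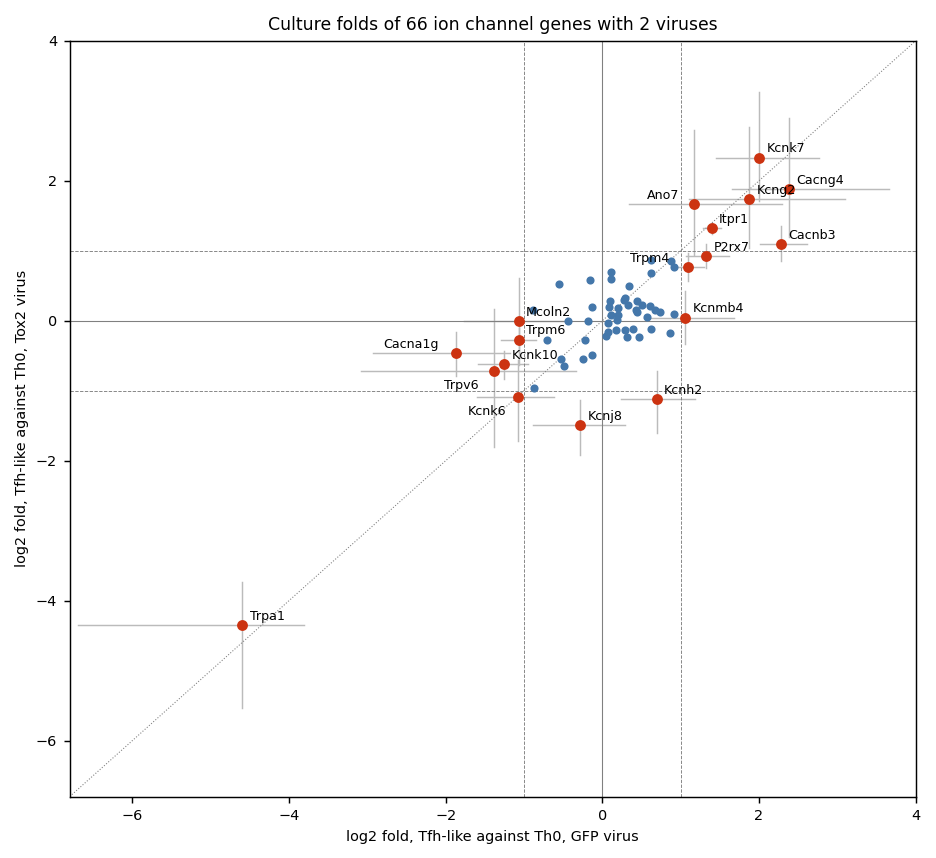
Log2 fold of Tfh-like over Th0 for 66 of the 70 members with the GFP virus (horizontal) and with the Tox2 virus (vertical). Red points are members called 2-fold apart (dashed lines) with at least 1 virus, with 95% counting intervals as grey lines, and the dotted line marks equal folds. Trpa1 (-4.60 and -4.35) stands alone at the lower left, and Kcnk7, Cacng4, Kcng2 and Cacnb3 lie at the upper right.

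Other genes of calcium entry and NFAT signalling were taken as a list of 59, of which 51 were compared. With Tox2, 6 rose (11.8%) and 2 fell (3.92%), against 4.07% and 2.74% of all genes. In Tfh-like 10 rose (19.6%) and 7 fell (13.7%), against 14.3% and 9.96% of all genes. Over the list the log2 folds for Tox2 had medians of 0.11 (Th0) and -0.00 (Tfh-like), and those for the culture 0.11 with either virus. Plcg1, the phospholipase that makes IP3, rose with Tox2 by 0.69 (SE 0.15, edgeR adjusted p = 0.0440), Nfatc3 by 0.46 (SE 0.10) and Nfat5 by 0.80 (SE 0.11). Dgkz rose by 0.60 (SE 0.09) and Tpcn1 by 0.69 (SE 0.15, edgeR adjusted p = 0.0487). The calls in this list were made without taking out the length trend described above. Hvcn1, the voltage-gated proton channel, fell with Tox2 by 0.90 on the log2 scale (SE 0.13) and Panx1, a channel that releases ATP, by 0.81 (SE 0.10). Atp1b1, a subunit of the sodium pump, had GFP and Tox2 counts of 73 and 285 (Th0) and of 37 and 99 (Tfh-like). It rose with Tox2 by 1.69 (SE 0.23).

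In Tfh-like, the calcineurin subunit Ppp3cc rose by 1.88 (SE 0.10, edgeR adjusted p = 0.000191), the plasma membrane calcium pump Atp2b4 by 2.06 (SE 0.18), Nfatc2 by 1.06 (SE 0.12) and the mitochondrial channel Vdac1 by 1.23 (SE 0.10). Nfatc1 fell by 0.72 on the log2 scale (SE 0.10) and Rcan1, an inhibitor of calcineurin and itself an NFAT target, by 0.85 (SE 0.14). Mcub, the dominant-negative subunit of the mitochondrial calcium uniporter, rose by 1.05 (SE 0.14) and its pore Mcu fell by 0.46 on the log2 scale (SE 0.12). In a second list, of 38 channel regulators and channels outside the families above, 26 were compared. With Tox2, 2 rose (Slc12a7, a potassium-chloride cotransporter, and Ttyh3), against 4.07% of all genes. In Tfh-like 3 rose (Fxyd5, Oxsr1 and Sgk1, a kinase that acts on channel turnover) and 1 fell (Ttyh3), no more than the shares of all genes, 14.3% and 9.96%. Sgk1 had Th0 and Tfh-like counts of 18 and 154 (GFP) and of 20 and 147 (Tox2).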

How the data were processed

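RNA was measured in 4 libraries, 1 a group. Per the submitters' processing notes, the tools were featureCounts (Subread), Bowtie2, edgeR, MACS2 and Trim Galore 0.4.4 on mm10, with no role or order given. For the counting, strand setting and annotation were not stated there. The deposited files hold raw counts and the authors' FPKM per gene. The counts were scaled by TMM in edgeR 4.0.16 (R 4.3.3), and genes with at least 1 CPM in at least 1 library were compared. Pair folds are log2 folds of scaled CPM with a prior count of 2 and exact 95% binomial intervals, which cover counting error only, and 3 counts correspond to 0.219 to 0.230 CPM. The additive edgeR quasi-likelihood model has 1 residual degree of freedom and an adjusted p threshold of 0.05 (Benjamini-Hochberg). Nothing says that the libraries are replicate animals or cultures. DESeq2 1.42.0 and limma-voom (limma 3.58.1) were alternatives, as were other scalings, filters and prior counts. The scripts were tested on simulated data. The members and lists were chosen with earlier results of these data known. Genes were named where they passed the additive test, were 2-fold apart in a pair or between the Tox2 folds, belonged to a list of known T-cell channels or were among the 10 highest in mean FPKM. Coordinates are from GENCODE M21 (GRCm38), which held 70 of the 70 members. The results of 4 members are not reported here one by one or drawn, but are included in the counts and medians.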

Additional observations from a re-analysis of the deposited data

Results flagged for a closer look

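The Tox2 fold of 6 members had opposite signs in the cultures, with each counting interval excluding no difference, as had 4.51% of all genes compared. The difference itself was not tested, as there is 1 library per group. The difference of the log2 folds, Tfh-like minus Th0, was -1.82 for Kcnh2 (1.13 in Th0, -0.69 in Tfh-like), -1.20 for Cacnb3 (0.66 and -0.53) and -0.83 for Clcn5, an endosomal chloride-proton exchanger (0.46 and -0.36). It was -0.61 for Itpr3 (0.35 and -0.26), 0.43 for Clcn4 (-0.20 and 0.23) and 0.33 for Orai2 (-0.19 and 0.14). The counting interval of Orai2 in Tfh-like, 0.005 to 0.272, only just excluded no difference with TMM scaling.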

How the results depend on the processing

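No paired analysis was possible because the labels carry no replicate numbers and each group has 1 library. With a prior count of 10, the Tox2 pair of Tfh-like had 0 members 2-fold lower, not 1, and the culture pair of GFP cells 4 lower, not 7. With genes of at least 5 CPM, 0 were lower with Tox2 in Th0 (1), 7 higher in Tfh-like with GFP (11) and 5 higher with Tox2 (8). Members that passed for Tox2 numbered 7 to 11 over the alternatives: voom added Kcnj8, and scaling by total counts added Kcnj8 and Stim2. For the culture, 15 (DESeq2) to 24 (voom) passed against 22; those added were Trpm6 (DESeq2 size factors, total counts), Kcnj8 (voom, total counts), Cacna1g (total counts), Kcnmb1 (voom) and Ano6 (length trend removed). Mcoln3 and Piezo1 missed the threshold at 5 CPM (edgeR adjusted p = 0.052 and 0.0506), as Piezo1 and Lrrc8b did with total counts (0.078 and 0.0732). Over all genes, 746 passed for Tox2, against 492 with DESeq2, 902 with voom and 1193 with total counts. For the culture 2656 passed, against 1609 with DESeq2 and 2800 with voom. The causes were not tested. Kcna7, at 5 to 17 counts, and P2rx5, at 11 to 32, had wide counting intervals for Tox2 in Th0 (0.22 to 3.51 and 0.25 to 2.45).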
